A study of Sinonovacula constricta with 18 samples.

Results

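In 100 families of transcript clusters of the razor clam Sinonovacula constricta, the cluster that held most of the family's mean signal in one tissue was not the one that held most of it in another. A family is here called a stem, which is the identifier of a full-length transcript cluster without its trailing number, and the clusters that carry the same stem with different trailing numbers are its siblings, called sibling 1, sibling 2 and sibling 3. The stems were chosen on the measured values. A sibling's share is its tissue mean FPKM (sequenced fragments scaled by the length of the cluster and by the size of the library) divided by the sum over its siblings, and the score of a stem is the largest range of any sibling's share over the 6 tissues, in percentage points. Of 28569 stems in the tables, 3164 had 2 to 4 siblings, 1840 of these had at least 180 reads in every sibling over all libraries, and 1708 also reached a summed FPKM of 1 in every tissue mean. The 100 with the largest score were taken, with 207 clusters among the 32250 of the series. They comprised 93 stems of 2 siblings and 7 of 3, and none of the 10 stems of 4 siblings past the filters was among them.

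RNA of healthy adult clams was sequenced from the foot, the mantle, the siphon, the gill, the labial palp and the intestine. Every tissue had 3 libraries, and a library held the mixed RNA of 3 animals. No treatment, strain or genotype was compared, the foot was labelled foot muscle, and the labial palp libraries carry the title lips. The labels number the libraries 1 to 3 in each tissue without saying whether equal numbers mark the same pool of animals or the same preparation. Estimated reads summed to between 9982441 and 17970120 per library. The clusters carry no gene names, so neither the function of a stem nor the tissue labels could be checked against marker genes, and a stem is called by its size bin and cluster number (i2_c88642). In whole tissues, fewer cells of a type and less RNA per cell cannot be told apart.

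A bivalve's siphon draws in and expels water, its gill and labial palps gather and sort food particles with ciliated epithelia, the intestine digests, the mantle secretes the shell and the foot is a muscular digging organ. Genes can differ between such tissues in how much RNA they make and in which RNA, through alternative splicing, other start or end sites, or the use of related gene copies. Long-read sequencing reads a transcript from end to end, and its reads are clustered into consensus sequences that serve as a reference when no genome is used. Short reads are then divided among reference sequences by an estimate of which one they came from, so sequences that resemble each other share reads and their values are estimated together. A share of siblings therefore depends on how reads were divided among clusters, inside or outside the stem, as well as on how much each RNA was present.

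The effective lengths of the siblings were short beside the length in the identifier. The effective length of each cluster, derived from its estimated count, its FPKM and the library total, had a median of 86.6% of the length in the identifier over 16585 clusters without a trailing number, and of 29.3% over 11630 clusters with one. In the 100 stems the effective lengths of the siblings added up to no more than the length in the identifier in 100 of 100, with a median sum of 64.2% and a range from 5.34% to 94.7%. The trailing numbers followed the order of length, longest first, in 99 of 100. The same held among the 1602 stems not taken with known lengths, of which 1602 had sums at or below the length in the identifier. An effective length is shorter than the sequence itself, by a median of 242.8 bases in the clusters without a trailing number. With this added to each sibling, the sum exceeded the length in the identifier in 11 of the 100 stems and in 9.68% of those not taken. The identifiers recorded 1 full-length read behind 94 of the 100 stems (85.0% of those not taken).

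The scores of the 100 stems ran from 54.1 to 99.8 points with a median of 69.1, against a median of 14.8 and a highest score of 53.9 among the 1608 stems not taken. No gap separated the members from the rest. Just inside the limit lay i1_c87735 at 54.7 points and i4_c2101 at 54.1, and just outside it lay i2_c59636 at 53.9 and i3_c26641 at 53.7. In i3_c26641, which was not taken, sibling 1 held 76.7%, 78.6% and 94.7% of the stem in the 3 intestine libraries and 35.9%, 28.6% and 31.8% in the mantle libraries. In i4_c2101, which was taken, the shares of the labial palp, its highest tissue, were 0%, 94.2% and 5.86%, and those of the mantle, its lowest, were 12.7%, 67.7% and 8.24%. A stem with separate tissues thus fell outside the limit and one with overlapping tissues inside it.

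**Figure D1:**
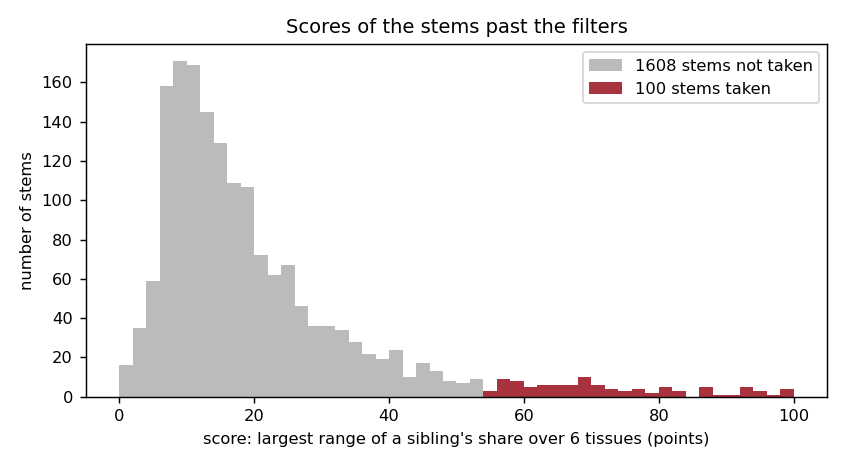
Histogram of the score (x axis, percentage points) of the 1708 stems past the filters (y axis, number of stems), with the 100 taken in red and the 1608 not taken in grey. The taken stems form the upper tail from 54.1 to 99.8 points, with no gap at the limit.

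In the tissue means, mantle stood apart from the other tissues in which sibling led. The leading sibling, the one with the largest tissue mean, was not the same in all tissues in 100 of 100 stems. A range above 50 points forces this in a stem of 2 siblings, so it follows from the choice. In 29 stems the mantle alone had another leader than the other 5 tissues, in 9 the intestine and labial palp together, in 8 the intestine alone, and in 7 each the siphon with the foot, the siphon with the gill and foot, and the siphon with the mantle and foot. Stems i6_c817 and i3_c13280 were the 2 in which 3 siblings each led somewhere. The longest sibling led in 44 stems in siphon, 50 in gill, 46 in intestine, 56 in labial palp, 56 in mantle and 46 in foot, so that no tissue took the longest or the shorter piece throughout.

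Siphon and foot mostly shared their leader. They had the same one in 84 of the 100 stems, intestine and labial palp in 75, gill and labial palp in 69, and intestine and mantle, the pair that shared it least often, in 30. Among the 516 stems not taken whose leader also differed between tissues, these pairs shared a leader in 57.8%, 66.7%, 64.0% and 51.7%. The median absolute difference in share between siphon and foot was 7.56 points over the 100 stems, that between gill and labial palp 10.05 points, and that between intestine and mantle 47.7 points. Every pair with mantle lay above 40 points and every other pair at or below 30.1. Outside mantle, libraries of equal number in different tissues differed in this share by a median of 10 points, and with mantle by 33.6. How far this set mantle apart in the tissue means was not tested. Mantle was the highest or the lowest tissue of the scoring sibling in 62 stems, siphon in 41, intestine in 36, gill in 21, foot in 21 and labial palp in 19. Over all 1708 stems these tissues were an extreme in 50.4%, 31.3%, 34.1%, 24.3%, 35.3% and 24.5%, in the same order. Siphon and foot were the 2 extremes in 0 of the 100 stems and in 4.98% of all stems. Gill and labial palp were so in 1 of the 100 and in 2.52% of all.

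**Figure D2:**
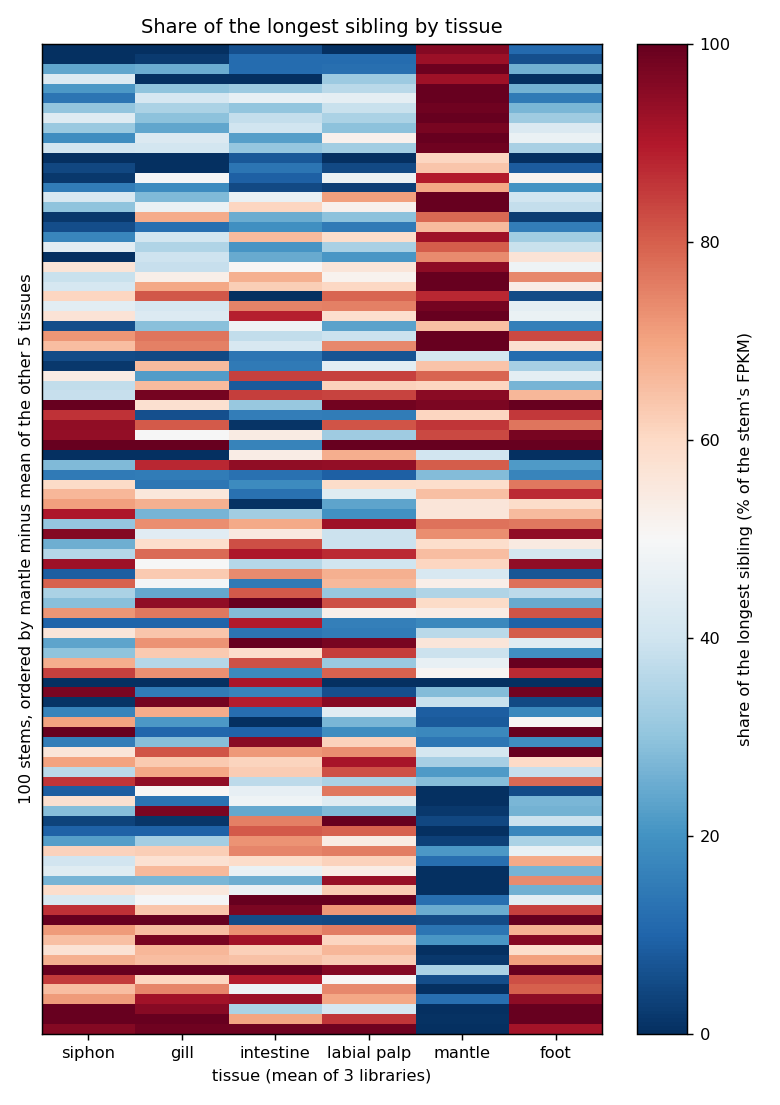
Share of the longest sibling in percent of the stem's FPKM (colour, blue at 0 and red at 100) in the mean of 3 libraries for the 6 tissues (columns) of the 100 stems (rows, ordered by mantle minus the mean of the others). The mantle column goes from red at the top to blue at the bottom while siphon and foot look alike in most rows, as their median difference of 7.56 points states.

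The clearest stem was i2_c88642, whose 2 siblings have effective lengths of 596.7 and 338.3 bases. Sibling 1 held 97.7%, 97.7% and 97.8% of the stem in the gill libraries and 95.8%, 94.2% and 95.8% in the labial palp. In the intestine it held 89.98%, 87.6% and 90.02%, and in the mantle 41.4%, 37.3% and 38.3%. In the foot it held 3.998%, 2.98% and 6.34%, and in the siphon 0.547%, 1.11% and 1.09%. The 3 libraries of each tissue lay within a few points of each other, the feeding and digestive tissues were led by sibling 1, and siphon, foot and mantle by sibling 2. The level of sibling 1 was 186.1 ± 2.6 FPKM in gill and 2.6 ± 1.4 FPKM in siphon (SD, n = 3), and that of sibling 2 was 4.4 ± 0.2 FPKM in gill and 264.2 ± 69.0 FPKM in siphon. Both siblings therefore took part, in opposite directions. This was the only one of the 100 stems in which all 18 libraries had the leader of their tissue mean.

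The next stems in the order of the gap between the extreme tissues had siphon, foot, intestine, labial palp or mantle as their extremes. In i3_c4088 sibling 1 held 99.6%, 93.6% and 97.4% in siphon and 98.8%, 97.0% and 98.4% in foot, and 16.3%, 5.604% and 2.99% in labial palp. The gill libraries of this stem did not resemble each other, at 18.8%, 6.07% and 100%. Sibling 1 itself stayed between 67.7 and 236.4 FPKM in the 18 libraries, whereas sibling 2 lay between 0.28 and 4.72 FPKM in siphon and foot and between 732.0 and 2582.5 in labial palp, so the share here was set by sibling 2. In i1_c59748 sibling 1 held 81.0%, 97.8% and 94.2% in siphon and 0.822%, 0% and 2.04% in intestine, while its foot libraries were spread over 48.4%, 26.5% and 89.2%. In i3_c19720 sibling 1 held 92.0%, 95.2% and 97.8% in intestine and 17.03%, 10.6% and 13.7% in mantle. Labial palp, at 40.4%, 74.3% and 75.9%, lay between them, and sibling 2 led in the means of siphon, gill, mantle and foot. Intestine was again separate in i2_c27949, where sibling 1 held 37.7%, 27.1% and 30.6%, against 100% in each of the 3 siphon libraries. Sibling 2 of that stem was listed at 0 in all siphon libraries and reached 254.7, 522.8 and 154.2 FPKM in intestine and 64.4, 121.1 and 38.1 FPKM in gill.

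A stem of 3 siblings, i3_c13280, had a single leader in intestine. Sibling 1 held 91.3%, 90.7% and 88.1% there and between 0% and 31.6% in the 15 libraries of the other tissues. Sibling 3 was listed at 0 in the 3 intestine libraries and held between 35.4% and 63.9% elsewhere. Foot and mantle were the extremes of i2_c35464, with shares of sibling 1 of 94.0%, 96.4% and 93.1% in foot and 6.63%, 23.6% and 5.04% in mantle. The level of that sibling was 1240.5 ± 398.6 FPKM in foot (SD, n = 3), and between 0 and 348.1 FPKM in the 15 other libraries. In i2_c41838 sibling 1 held 99.4%, 95.5% and 100% in mantle and 30.4%, 28.1% and 34.7% in intestine. Its siphon, gill and foot libraries numbered 1 and 2 lay between 13.7% and 33.6% and those numbered 3 between 99.7% and 100%, so that in these tissues the leader depended on the library and not on the tissue.

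A graded series was seen in i1_c9033, chosen after its values were seen. Sibling 1 held 97.2%, 97.5% and 92.3% in siphon, 96.2%, 99.1% and 88.9% in foot and 81.3%, 71.4% and 67.8% in mantle. It held 62.2%, 49.4% and 53.8% in intestine, 46.2%, 41.5% and 45.2% in gill and 42.3%, 33.3% and 41.3% in labial palp. Siphon did not differ from foot beyond the spread of their libraries, and gill overlapped labial palp, while siphon and foot lay above the 4 other tissues in every library. Sibling 2 measured 70.5 ± 7.5 FPKM in labial palp, 43.4 ± 0.5 in gill, 1.0 ± 0.6 in siphon and 1.5 ± 1.5 in foot (SD, n = 3), and sibling 1 stayed between 20.9 and 55.6 FPKM in all 18 libraries.

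**Figure D3:**
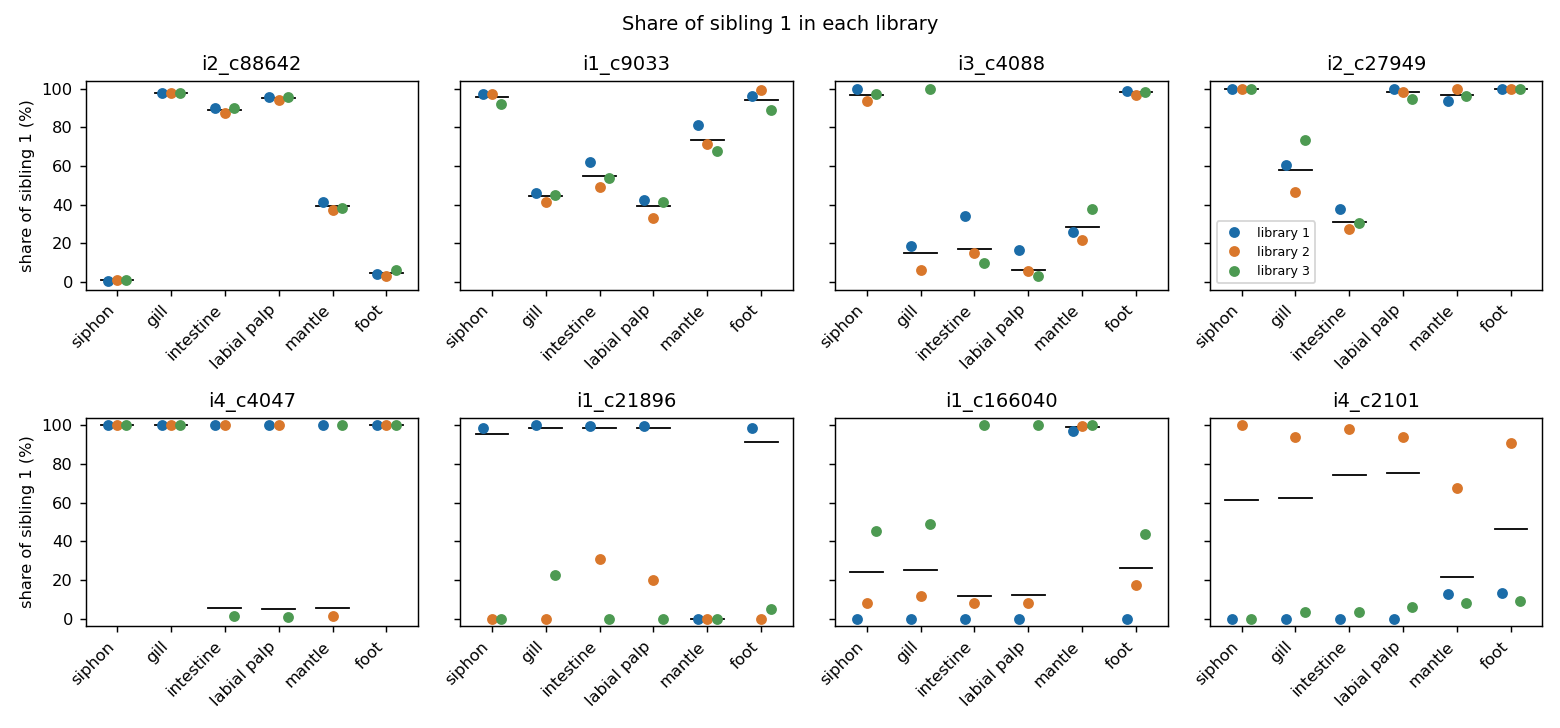
Share of sibling 1 in percent (y axis) in each of the 3 libraries (points coloured by library number) of 6 tissues (x axis) for 8 stems, with the share of the tissue mean as a bar. In i2_c88642 the 3 points of each tissue coincide, whereas in i4_c2101 the libraries numbered 2 lie between 67.7% and 100% and all others at or below 13.2%.

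Many of the highest scores rested on 1 library per tissue. In i1_c126439, which has the highest score at 99.8 points, sibling 1 measured 173.7 FPKM in siphon library 1, 189.3 in foot library 1, and 0 in siphon and foot libraries 2 and 3, where the whole stem was listed at 0. Its sibling 2 measured 110.7, 0 and 182.2 FPKM in the mantle libraries. The libraries numbered 1 of the 5 other tissues carried sibling 1, and the mantle libraries mostly sibling 2, so the extreme tissues were each known from 1 to 3 libraries. The second stem, i3_c20486, had sibling 1 at 16.4, 0.39 and 0 FPKM in siphon and at 7.74, 0 and 0 in gill, and 8 of its 18 libraries had no read of either sibling. In the third, i1_c21896, sibling 1 measured 451.2, 0.49 and 0 FPKM in intestine, 349.3, 0 and 0.70 in gill and 0 in the 3 mantle libraries, while sibling 2 stayed at or below 5.04 FPKM in all 18. The library numbered 1 was thus 349.3 against at most 0.70 within gill alone.

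Other stems near the top turned on libraries with other numbers. In i4_c4047 sibling 2 was listed at 0 in 15 libraries and measured 1320.5 FPKM in intestine library 3, 1616.8 in labial palp library 3 and 1653.6 in mantle library 2, and sibling 1 stayed between 11.8 and 39.6 FPKM. The means of 3 tissues thus had sibling 2 as leader through 1 library each. In i2_c82556 sibling 2 measured 308.8 FPKM in gill library 3 and 0 and 1.03 in gill libraries 1 and 2, and it was listed at 0 in the 3 labial palp libraries. Stem i4_c884 had sibling 1 at 55.6, 0 and 1.80 FPKM in mantle, and without mantle library 1 its score of 95.7 points became 41.2. Stem i6_c817 scored 95.4 points and, without gill library 1, 52.4. Its siblings 1 and 2 measured 341.1 and 831.8 FPKM in siphon library 1 and at most 7.67 in siphon libraries 2 and 3. The mantle of this stem, in contrast, carried sibling 3 at 870.1, 938.7 and 2509.3 FPKM, against at most 10.1 FPKM in the 15 other libraries.

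In the remaining 3 of the 12 highest scores, an extreme tissue had at least 1 library without a read of the stem. In i1_c261987 sibling 1 held 93.4% in labial palp library 1, and labial palp libraries 2 and 3 had no read of the stem. In i2_c111458 sibling 1 held 68.7%, 100% and 100% in mantle and 0% in siphon libraries 1 and 2, and siphon library 3 had no read. In i2_c26786 the highest tissue, mantle, was represented by library 3 alone, at a share of 92.2% for sibling 2. Among the stems of these 12 with a share in every library of both extreme tissues, i2_c88642 and i1_c59748 had extreme tissues that did not overlap. The others of the 12 overlapped or had a library without a share, where separation over all libraries could not be read.

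Over the 100 stems, the 3 libraries of the highest tissue all lay above the 3 of the lowest in 34. Among all 1708 stems past the filters the same was true of 31.9%. A stem with an extreme-tissue library without a share could not be counted as separated. Among the stems with a share in every library of both extreme tissues, 34 of 72 members were separated (47.2%), against 511 of 1554 not taken (32.9%) and 33.5% of all, in the contrast the rule used. In 38 stems the libraries of the extreme tissues overlapped, and in 28 at least 1 library of an extreme tissue had no read of the stem and so no share, against 3.36% of the stems not taken. Only 63 of the 100 had a share in all 18 libraries, against 94.4% of those not taken. Leaving out 1 library took 40 of the 100 stems below the last score taken. It took 5 of them below 20 points, namely i6_c777 and i5_c400 to 0 without intestine library 3, i3_c11577 to 13.7 without mantle library 1, and i2_c40014 to 7.72 and i2_c15239 to 13.8 without mantle library 2. A tissue left with a stem sum of 0 dropped out of the range, so these counts can miss stems that rest on 1 library. In i1_c126439, whose siphon reads all came from library 1, the lowest such score was 99.5 points. Over the 1673 stem and library combinations with a share, the leader of the library was that of its tissue mean in 75.6%, against 70.9% in the 516 stems not taken whose leader differed between tissues. In 18 stems there was no tissue whose 3 libraries all followed the leader of the tissue mean, and in 29 there was 1 such tissue. A library without a share counted as not following, so i2_c26786, where all 9 libraries with a share followed, was among the 18. The stems not taken were not counted in this way.

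The rule did not use the numbers that the labels give to the libraries, and the shares differed between these numbers in some of the 100 stems. Adjusted p-values by number were taken from limma with Benjamini-Hochberg adjustment over all 1708 stems, on the log2 ratio of a sibling to the rest of its stem with tissue in the model. By this test 39 of the 100 stems differed between the numbers, against 26.2% of all stems past the filters and 25.4% of those not taken. Without the mantle libraries 49 of the 100 did, against 38.8% of all. The tissues differed in 8 of the 100 by a test among tissues without the number in the model, against 0.82% of all stems, which is the contrast that chose them and is given as a description. No stem was called by both tests and 53 by neither. Of the 34 stems with separate extreme tissues, 5 differed by number, and of the 66 others, 34. A difference between numbers is a spread within a tissue, which works against separation and against the tissue test. These crossed counts therefore follow in part from how the measures are built.

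Tests of the single clusters gave a similar picture. By the quasi-likelihood test of edgeR with Benjamini-Hochberg adjustment over 29930 clusters, 57 of the 207 member clusters differed between library numbers, against 17.7% of all clusters tested and 16.1% of the clusters in the stems not taken. Without mantle it was 89 of 206, against 33.2%. With 1 library left out, the lowest counts were 34 without siphon library 1, 35 without labial palp library 1 and 36 without gill library 1. The count was 37 without gill library 2 or without foot library 2. The highest were 79, 74 and 72, without mantle libraries 2, 3 and 1. What percentage of all clusters was called with 1 library left out was not counted. Among tissues 44 of the 207 were called, against 24.3% of all clusters, again in the contrast the rule used. Spread between the libraries of a tissue can raise a score by itself, and how far the number and the score are tied by this was not tested.

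Stems i2_c20559, i4_c2101 and i1_c166040 had the lowest adjusted p by number. In i2_c20559 sibling 1 held between 10.7% and 83.7% in the libraries numbered 1 and 3 of all 6 tissues and between 0% and 2.16% in those numbered 2 (limma, adjusted p = 1.26e-05, and between 1.99e-06 and 0.000545 over 23 alternatives). Within numbers 1 and 3 the tissues were still apart, at 71.0% to 83.7% in gill, intestine and labial palp, 44.5% and 55.6% in mantle and 10.7% to 12.6% in siphon and foot. In i4_c2101 sibling 1 held between 67.7% and 100% in the libraries numbered 2 and between 0% and 13.2% in the others (limma, adjusted p = 0.000211, and between 2.47e-05 and 0.00184 over the alternatives). The mean share of this stem ranged over 86.5 points between numbers and over 8.05 points between tissues. In i1_c166040 sibling 1 held 0% in the 5 libraries numbered 1 outside mantle, between 7.92% and 17.6% in those numbered 2 and between 44.0% and 100% in those numbered 3 (limma, adjusted p = 0.00122, and between 0.000442 and 0.00515 over the alternatives). In the mantle it held 97.0%, 99.5% and 100%, so the numbers were apart in 5 tissues and not in mantle.

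**Figure D4:**
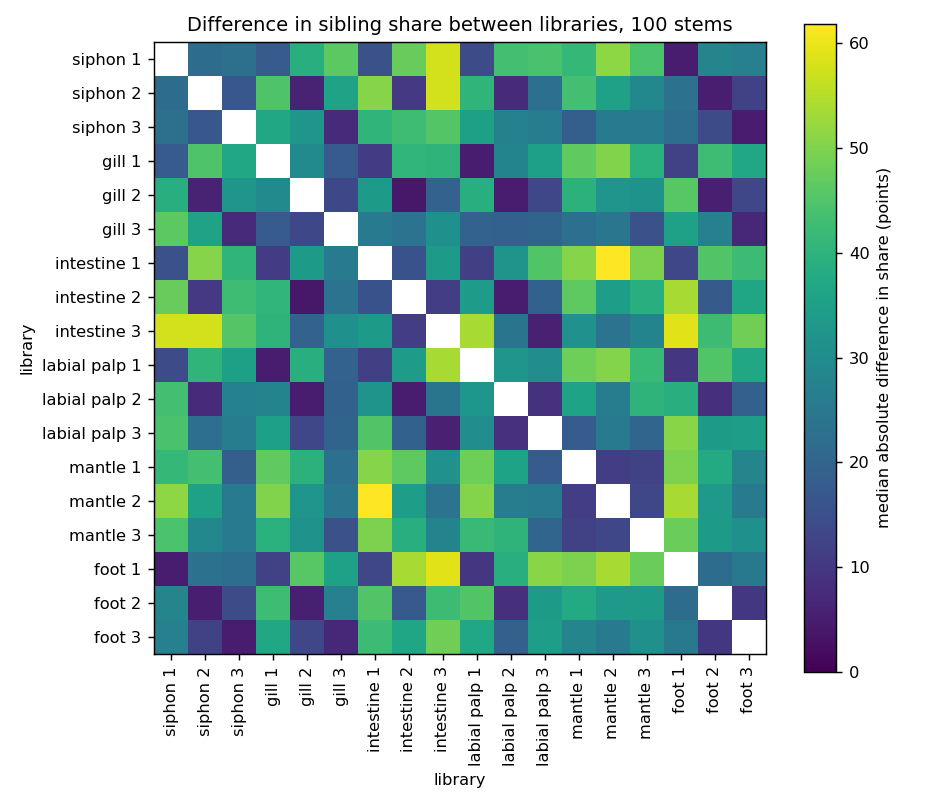
Median absolute difference in the share of the scoring sibling over the 100 stems (colour, percentage points) for each pair of the 18 libraries (rows and columns, 3 per tissue). Outside mantle, pairs of equal number had medians of 11.95 points for number 1, 5.68 for number 2 and 23.1 for number 3, where pairs reached 48.6, and the 3 mantle libraries had a median of 12.3.

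The same arrangement was seen when libraries were compared pair by pair. Over the 100 stems, libraries of different tissues with the same number, mantle left out, differed by a median of 10 points in the share of the scoring sibling. Such pairs ran from 3.91 to 48.6. Libraries of the same tissue with different numbers, mantle left out, differed by a median of 21.8 points. The 3 mantle libraries differed from one another by 12.3 points and from libraries of equal number in other tissues by 33.6. Pairs that shared neither tissue nor number differed by 36.7 points without mantle and by 38.3 points with it, so single mantle libraries were hardly farther off in such pairs. Outside mantle, the 10 pairs numbered 1 had a median of 11.95 points and at most 17.7, and the 10 numbered 2 a median of 5.68 and at most 17.5. The 10 pairs numbered 3 had a median of 23.1 points, and 5 of them lay above the median of libraries of the same tissue. Siphon, gill and foot libraries 3 differed from one another by 4.96 to 7.27 points and intestine and labial palp libraries 3 by 5.65, while intestine library 3 differed from foot library 3 by 48.6. The nearness of equal numbers thus held for the pairs numbered 1 and 2 and for part of those numbered 3. Over all stems past the filters, pairs of libraries of the same tissue outside mantle had median differences of 8.43 to 13.5 points. Pairs of equal number outside mantle had 5.13 to 7.41 points for number 1 and 4.76 to 8.87 for number 2. Those numbered 3 had 5.15 to 11.2 points. The nearness of equal numbers was thus not particular to the 100 stems. The range of the mean share over numbers exceeded that over tissues in 28 of the 100 stems, and in 38.9% of the stems not taken. The median range over tissues was 58.6 points in the 100 stems and that over numbers 38.7 points, against 16.0 and 12.8 points in those not taken. The range over tissues takes 6 means of 3 libraries and that over numbers 3 means of 6. The first can therefore be wider without a difference between tissues, and the rule chose on a range over tissues.

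**Figure D5:**
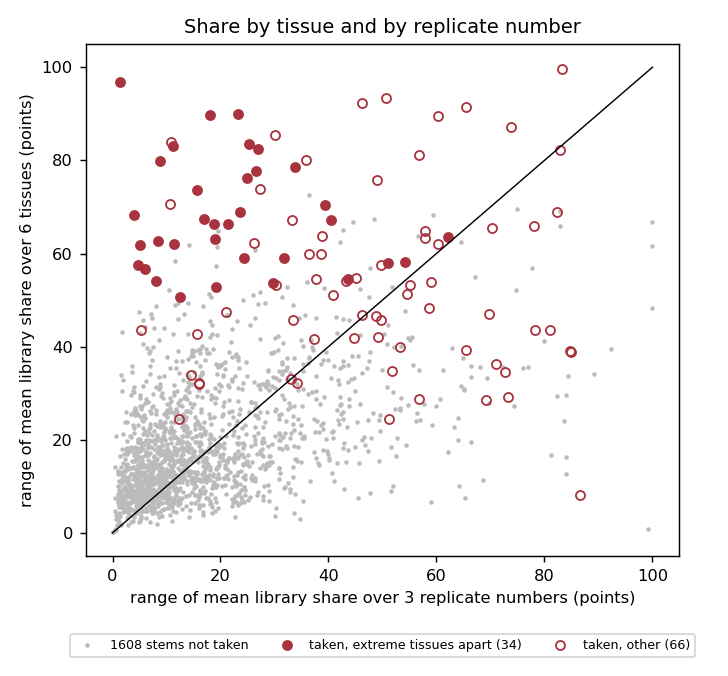
Range of the mean library share over the 6 tissues (y axis, percentage points) against its range over the 3 library numbers (x axis, percentage points), with the stems not taken in grey, the 34 taken stems with separate extreme tissues as filled circles and the 66 others as open circles. Stems below the diagonal, 28 of the 100, had a larger range over the 3 numbers than over the 6 tissues.

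When the stems were chosen on the libraries of 2 numbers and read in the third, the median difference was smaller than the score. Chosen without the libraries numbered 1, the top 100 had a median score of 70.5 points, and in the libraries numbered 1 the same contrast had a median difference of 4.31 points and the same direction in 58 of 98 stems. For the libraries numbered 2 the median difference was 4.32 points and the direction was the same in 50 of 86. For those numbered 3 it was 14.1 points and 51 of 84. Among stems past the filters and not taken the direction was the same in 55.4%, 53.9% and 53.8%. Stems whose extreme tissues did not overlap in the numbers used kept their direction in 41 of 56, 37 of 55 and 35 of 53, with median differences of 19.8, 16.6 and 17.1 points. The remaining stems, with overlap or without a share, did so in 17 of 42, 13 of 31 and 16 of 31, with median differences of 0, 0 and 1.34 points. In all these counts a difference of exactly 0 was counted as not kept, so the rest were not all reversals. A difference of over 50 points in the same direction was kept by 22 of 98, 26 of 86 and 26 of 84 of the stems chosen, against 18 of 1129, 38 of 1337 and 44 of 1313 of those not taken.

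The stems with the most signal showed both kinds of pattern. The largest mean sum, 1792.7 FPKM, belonged to i1_c215331. Its sibling 1 lay between 617.2 and 1553.8 FPKM in all 18 libraries, and sibling 2 measured 52.7, 2778.8 and 2351.2 FPKM in siphon and 69.7, 4320.6 and 3092.1 in foot, against 476.2, 284.8 and 222.2 in mantle and at most 233.5 in the 9 other libraries. Siphon and foot thus carried sibling 2 at a high level in the libraries numbered 2 and 3 and not in those numbered 1. In i2_c7498, with a mean sum of 933.7 FPKM, sibling 3 held 84.1%, 100% and 94.4% in siphon and 30.8%, 0.285% and 0.202% in mantle. Foot carried this sibling at 2170.7, 4333.5 and 2440.9 FPKM and, in library 2, also siblings 1 and 2 at 1050.8 and 2397.5. In i4_c1073 sibling 1 was found in all 3 mantle libraries at 789.0 ± 154.2 FPKM (SD, n = 3), and in siphon, gill and foot at 101.4 to 173.5 FPKM in library 1 and at most 0.06 in libraries 2 and 3.

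Between the extreme tissues of a stem the scoring sibling was higher and the rest of the stem lower in 67 of the 100. Both were lower in 21 and both higher in 12, and opposite differences were found in 33.1% of the stems not taken. The median log2 difference was 2.41 for the scoring sibling, -3.94 for the rest of the stem and -0.54 for the stem's sum, on log2(FPKM + 0.1), against 0.48, -0.73 and -0.13 in the stems not taken. The score is built from these values, so they describe the choice.

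Estimated counts of the members were seldom whole numbers. An estimated count has a fraction where a read is divided between clusters. In 70 of the 100 stems no sibling had a whole count above 0 in any library, against 28.7% of those not taken, and the median percentage of whole values was 0% in the 100 stems and 33.3% in the others. Summed over all 18 libraries, the members had a median of 3620 reads per stem, against 2748 in the others. Depth per library was not compared. The counts summed over siblings were whole in a median of 5.56% of the libraries, against 11.1% in the stems not taken. In the other libraries at least 1 read was divided with a cluster outside the stem, and how many were was not measured. For 8 of 184 member clusters with fractional counts in at least 6 libraries, exactly 1 other cluster completed the count to a whole number in all 18 libraries within 0.01 reads, against 307 of 2028 clusters in the stems not taken. The siblings of i6_c1022 made up 2 of the 8, so that their reads were divided between each other, and 6 had their partner in another stem.

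These 6 clusters allowed the share to be taken with the partner's FPKM added to the sibling, an alternative chosen, like the clusters, after the data were seen. The score of i4_c884 then went from 95.7 to 35.9 points, that of i2_c55864 from 76.4 to 37.1, that of i2_c5527 from 68.9 to 39.8 and that of i1_c121258 from 62.3 to 24.9. The score of i2_c84071 went from 56.2 to 49.2 points, and that of i2_c90415 from 80.3 to 80.7. With the partner counted, 5 of the 6 stems fell under the limit of 54.1 points and only i2_c90415 stayed above it. The limit itself comes from scores without partners. The whole FPKM of the partner was added, not only the divided reads, and no other cluster was added for comparison. Such an addition can narrow a range by itself, so the part of the division in these scores was not tested. Without the partner, sibling 1 of i2_c90415 held 4.14%, 9.67% and 0.427% in gill and 71.9%, 48.2% and 61.4% in mantle. Its siphon and foot libraries numbered 1 and 2 lay between 80.5% and 91.9% and those numbered 3 at 17.1% and 15.4%. The part of the division in the score was thus open for all 6. For the other stems, whose reads were divided among more than 1 further cluster or not at all, it was not tested either.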

How the data were processed

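Short-read RNA-seq libraries of 6 tissues, 3 per tissue, were analysed, grouped by their labels. For every library the authors deposited estimated counts and FPKM values, the latter scaled for cluster length and depth, of 32250 long-read consensus clusters per library. The submitters' processing notes name RSEM, Bowtie2 and DESeq 1.10.1, with no role given, and the labels name an Illumina kit. No reference sequence was used. Count totals lay between 9982441 and 17970120. Because counts are estimates, clusters of similar sequence share reads, and intervals for counting error were not computed.

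Shares were computed from FPKM (Python 3.11.15, pandas 2.3.3). Effective length was derived from the count, the FPKM and the library total where FPKM exceeded 2. Counts were rounded and the 29930 clusters with at least 10 reads were tested with edgeR 4.0.16 (TMM, quasi-likelihood F-test, R 4.3.3), among tissues and, with tissue in the model, by library number. Log2 ratios of (sibling + 0.1 FPKM) to (rest of the stem + 0.1 FPKM) were tested with limma 3.58.1 (trend), combined within a stem by Simes' method. Benjamini-Hochberg adjustment and a threshold of 0.05 were used throughout. Functions were tested on simulated data. P-values of the tests among tissues, without number in the model, rest on the spread between the libraries of a tissue. In the tests by number, the number is the tested effect. Their p-values rest on the spread left after tissue and number. Whether this is a spread between pools is unknown, since the labels do not say whether equal numbers mark the same pool of animals.

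Stems named are the 12 highest scores, the 8 widest gaps between extreme tissues, the highest score for each highest and lowest tissue, the ranks on both sides of the limit, the 3 lowest p by number and the 3 largest sums, and others are marked as chosen later. The members and lists were chosen with earlier results of these data known. Equal library numbers were not taken as pairs, since deviations from tissue means over 26222 clusters correlated above 0.1 in 30 of 30 pairs without a mantle library and in 0 of 15 with one. In the 30 pairs the correlation had a median of 0.69 and ran from 0.247 to 0.819. The tests among tissues without number in the model do not take account of this dependence. Alternatives were DESeq2 1.42.0, its size factors, other filters and pseudocounts, means of library shares, tissue medians, unscaled counts, a replicate block, no mantle and leaving out libraries.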

Additional observations from a re-analysis of the deposited data

How the results depend on the processing

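Which 100 stems were taken depended on the processing. Of the 100, 52 were taken again from tissue median FPKM, 46 with at least 1000 reads per sibling, 48 with a summed FPKM of 5, 55 without mantle and 47 without the libraries numbered 1. Leaving out 1 library kept 74 to 95. The count of 34 stems with separate extreme tissues became 22 with tissue medians and 56, 57 and 58 without the libraries numbered 1, 2 and 3, where each tissue has 2 libraries and separation comes more easily. The median score of 69.1 points became 63.5 with the mean of the library shares, 88.6 with tissue medians, 74.7 with at least 10 reads, 50.1 with at least 1000 reads, 52.9 with a summed FPKM of 5, 50.8 without mantle, 73.4 without the libraries numbered 2 and 68.6 to 73.0 without 1 library.

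The 57 member clusters that differed by library number became 89 without mantle and 34 to 79 without 1 library, namely 34 without siphon library 1, 35 without labial palp library 1, 36 without gill library 1, and 37 without gill library 2 or foot library 2. With DESeq2 they were 78. What percentage of all clusters was called with DESeq2 or with 1 library left out was not counted. The 39 stems that differed by number in the sibling ratio were 28 to 46 without 1 library. Among tissues, 8 stems became 15 with a replicate block, against 2.17% of all stems, and 13 with a pseudocount of 1 FPKM, and they were 6 to 10 without 1 library. The 44 member clusters called among tissues became 62 with the replicate block, against 31.9% of all clusters, and 61 with DESeq2, which gave no adjusted p for 27 of the members. All other settings kept the counts within 1.5 times. The leading sibling differed between tissues in 77 to 100 of the 100 stems taken under each setting. The causes of these differences were not tested.

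The limits of these data are the 3 pools per tissue, the missing gene names and the division of reads among clusters of similar sequence. A share in a library with few reads of a stem is imprecise, and its counting error is unknown because the counts are estimates. Score values of the named stems moved by more than their spread between library numbers in 45 of 668 stem and setting combinations.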
